A study of Mus musculus with 6 samples.

Results

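Glutathione S-transferases (GSTs) are described here in the livers of Sesn3 knockout and wild-type mice. The 10 genes were taken by symbol from a count table of 24421 gene symbols and cover the alpha class (Gsta2, Gsta3, Gsta4), the mu class (Gstm1, Gstm2, Gstm3, Gstm4), the pi class (Gstp1) and the theta class (Gstt1, Gstt2). All 10 passed the filter on low counts, as did 12945 genes in all.

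RNA was sequenced from 6 liver samples, 3 labelled Sesn3 KO (KO) and 3 labelled wild type (WT), with the libraries of each genotype numbered 1 to 3 (replicates 1 to 3 in the plots). All came from male C57BL/6 mice of 4 months. Both groups had eaten for 4 weeks a diet with 20% of its energy from protein, 40% from fat and 40% from carbohydrate, and the bile salt sodium cholate was added at 0.5% and cholesterol at 1.25%. The labels used here give neither the Sesn3 allele nor the tissues that lost it. Libraries summed to between 18882220 and 24098512 counts. Sesn3, which encodes a stress-inducible sestrin, averaged 0.715 ± 0.0398 CPM (the count set against the library total, scaled by TMM factors) in KO and 10.3 ± 1.31 CPM in WT (SD, n = 3 each). The summed level of 7 hepatocyte markers ran from 89016 to 107660 CPM in KO and from 85433 to 139900 CPM in WT, most of it Alb (log2 fold change 0.09). The other 6 had negative log2 fold changes (median of the 7 -0.51), and none of the 7 passed. In 4 of them (Ttr, Apoa1, Ambp and Apoh) every KO library lay below every WT library, which held in 16.6% of all genes tested. The part of these 7 markers in the GST differences was not tested. In whole liver, fewer cells of a type and less RNA per cell cannot be told apart.

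GSTs join the tripeptide glutathione to reactive, electron-poor molecules, which makes them more soluble and lets the cell export them. In liver the soluble alpha, mu, pi and theta classes act on drugs, carcinogens and the aldehydes formed when lipids are oxidised, and a separate set of GSTs sits in membranes. Many GST genes respond to the transcription factor NRF2, which the adaptor Keap1 holds at a low level in unstressed cells. Sestrins have been linked to the removal of Keap1 through the adaptor that Sqstm1 encodes. Reads were counted by gene symbol and some GST genes are close copies, so part of a gene's reads can come from another.

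Promoter sequence is shown for the 3 genes whose level differed between the genotypes, from RefSeq (GRCm38.p6), as the bases before the RefSeq start, 5′ to 3′ on the gene's strand. Capitals mark TGACNNNGC, the core of the antioxidant response element that NRF2 binds, or TGAGTCA, the AP-1 element, each searched on both strands. Gsta3 (chr1:21240335-21240584, plus strand) and Gstt1 (chr10:75797732-75797981, minus strand, a RefSeq start that lies inside the GENCODE gene) are given as 250 bases, and Gstp1 (chr19:4037970-4037996, minus strand) as the 27 bases around its element beside the same stretch of its neighbour and close copy Gstp2 (chr19:4042294-4042320, minus strand). Against the GENCODE genes, the Gstp1 stretch crosses the 5′ end and the Gstp2 stretch lies inside.
Gsta3: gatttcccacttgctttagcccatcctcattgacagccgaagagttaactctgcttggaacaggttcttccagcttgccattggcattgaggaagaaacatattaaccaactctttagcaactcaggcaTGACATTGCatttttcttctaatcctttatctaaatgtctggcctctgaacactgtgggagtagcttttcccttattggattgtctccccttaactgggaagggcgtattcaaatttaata
Gstt1: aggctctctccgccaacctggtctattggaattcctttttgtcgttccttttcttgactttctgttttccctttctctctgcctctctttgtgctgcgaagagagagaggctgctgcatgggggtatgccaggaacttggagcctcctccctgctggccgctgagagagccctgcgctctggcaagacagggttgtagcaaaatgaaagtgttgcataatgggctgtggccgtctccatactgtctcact
Gstp1: tccaacgtgtTGAGTCAgcatccgggg
Gstp2: tccaacgtgtTGAGTCAgcatccgggg
TGACNNNGC, the only form of the antioxidant core searched, was found before the start of 1 of the 8 genes with a promoter in the table. This was Gsta3, 121 to 113 bases upstream, and 10.2% of all 32851 promoter windows of this length held a match. TGAGTCA, searched after the sequences had been seen, was found before Gstp1 alone of the 8, 74 to 68 bases upstream, and in 4.46% of all windows. With the bases after it the Gstp1 site reads TGAGTCAgc, which has the letters of TGACNNNGC except G for C after TGA. Cores with G at that place were not searched. The printed stretches of Gstp1 and Gstp2 are the same letter for letter. Neither motif occurs in the 250 bases before Gstt1. These matches describe letters and not binding.

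Of the 10 genes, 3 were lower in KO and none was higher (edgeR quasi-likelihood test, adjusted p at most 0.05 over all genes tested). Over all genes 6.94% were called in either direction, 3.58% lower and 3.36% higher. The 3 were Gsta3, Gstp1 and Gstt1, 1 each of the alpha, pi and theta classes, and no mu gene passed. At an unadjusted p under 0.05, 4 of the 10 passed (Gsta4 was the other), against 25.8% of all genes. KO and WT libraries did not overlap in 3 of the 10, against 33.5% of all genes. In these 3 every KO library lay below every WT library, which held in 16.6% of all genes, and in none of the 10 did every KO library lie above every WT library, against 16.9% of all genes. The median log2 fold change of the 10 genes was 0.08, against 0.00 over all genes tested, with 5 positive and 5 negative values, and 50.3% of all genes were positive. The 10 genes were chosen with results of these data known, so their share of calls is not independent evidence. Without KO library 1, KO library 2 or WT library 3 none of the 10 was called lower, without KO library 3 only Gstt1 and without WT library 1 Gsta3 and Gstp1. Without KO library 1 Gstt2 was called higher. Over all genes the calls fell to 48 higher and 53 lower without KO library 2, 144 and 151 without KO library 1, 130 and 131 without KO library 3, and 132 and 160 without WT library 3, while without WT library 1 there were 504 higher and 458 lower.

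**Figure D1:**
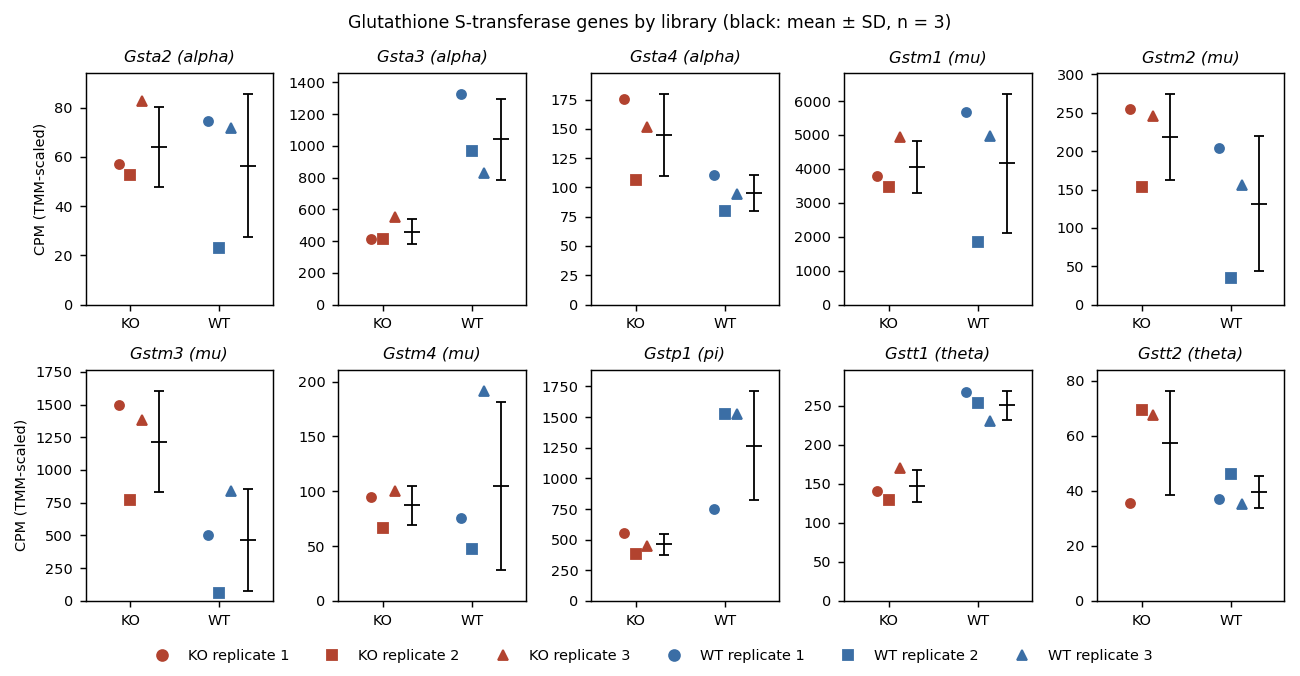
Level of each of the 10 genes in CPM scaled by TMM factors, with KO libraries on the left and WT libraries on the right of each panel, 1 point per library and the mean ± SD (n = 3) in black. KO points lie below all WT points for Gsta3, Gstp1 and Gstt1, and WT library 2 is the lowest point for Gsta2, Gsta4 and the 4 mu genes.

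In the alpha class, Gsta3 was lower in KO. Its product, known in mice for detoxifying activated aflatoxin, is encoded on chromosome 1 from 21240589 to 21265661 (GRCm38, plus strand). Gsta3 had 415, 412 and 553 CPM in KO libraries 1 to 3, against 1325, 968 and 827 CPM in WT libraries 1 to 3. The groups did not overlap, and the highest KO library stood well under the lowest WT library. Gsta3 fell 2.26-fold (log2 fold change -1.18, SE 0.23; edgeR adjusted p = 0.0293). Without KO library 1, 2 or 3 or WT library 3 it missed the threshold, with an adjusted p of up to 0.135, while its log2 fold change stayed between -1.33 and -0.96.

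Gsta4, whose product is known for conjugating the lipid aldehyde hydroxynonenal, lies on chromosome 9 from 78182774 to 78209349 (plus strand). It had 175, 107 and 152 CPM in KO libraries 1 to 3, against 111, 80.1 and 94.7 CPM in WT libraries 1 to 3. The KO libraries were mostly the higher ones, and KO library 2 lay under WT library 1. The log2 fold change was 0.60 (SE 0.21) and did not pass (edgeR adjusted p = 0.120). Gsta2, on chromosome 9 from 78331018 to 78355788 (minus strand), had 57.0, 52.4 and 82.7 CPM in KO against 74.4, 22.8 and 71.8 CPM in WT. Its groups overlapped throughout (log2 fold change 0.18, SE 0.42, edgeR adjusted p = 0.821). Of the 50-base windows of Gsta2 transcripts in GENCODE, 49.8% also occur in transcripts of another gene, mostly Gsta1, against 0.273% for Gsta3 and none for Gsta4. Gsta1 itself was at 28.9 ± 14.1 CPM in KO and 19.7 ± 15.8 CPM in WT (SD, n = 3 each), and the summed counts of Gsta1 and Gsta2 gave a log2 fold change of 0.29 (edgeR adjusted p = 0.739). Of the 50-base windows of Gsta1, 90.5% occur in another gene's transcripts, mostly the gene model Gm3776 (75.7%), which this sum leaves out.

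Within the alpha class, Gsta4 was set against Gsta3 in each library. The ratio of Gsta4 counts to Gsta3 counts was 0.423, 0.259 and 0.275 in KO libraries 1 to 3, against 0.0834, 0.0827 and 0.115 in WT libraries 1 to 3. A ratio of counts within a library does not depend on how libraries are scaled. Every KO ratio was above every WT ratio, a mean log2 difference of 1.75. The gene pairs for this ratio and the 2 like it below, of the mu and theta classes, were chosen after their values had been seen. Each ratio sets the gene of the higher log2 fold change over the other, so KO ratios above WT ratios are not independent evidence. An exact permutation test over libraries (two-sided) gave p = 0.10 for each of the 3, also when adjusted over them, which does not pass and is the smallest p that 3 against 3 libraries allow. The summed alpha level was 668 ± 109.9 CPM in KO against 1192 ± 278 CPM in WT (SD, n = 3 each), and Gsta3 supplied most of it in each library.

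The mu enzymes conjugate aromatic and other electrophiles, and their 7 genes in the table lie side by side on chromosome 3 over 149.1 kb, in the order Gstm5, Gstm7, Gstm6, Gstm3, Gstm2, Gstm1 and Gstm4. Gstm1, from 108012255 to 108017973 (minus strand), was the most abundant of the 10 genes. It had 3803, 3471 and 4931 CPM in KO libraries 1 to 3, against 5679, 1845 and 4963 CPM in WT libraries 1 to 3. The KO libraries lay within the WT range (log2 fold change -0.03, SE 0.41, edgeR adjusted p = 0.969), and the sign of this difference turned when libraries were scaled by upper-quartile factors or by total counts alone, and with limma-voom.

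Gstm3, from 107963696 to 107969283 (minus strand), had 1494, 772 and 1385 CPM in KO libraries 1 to 3, against 501, 61.8 and 840.1 CPM in WT libraries 1 to 3. Its KO mean was the higher one, but KO library 2 lay under WT library 3, and the WT libraries spread widely. The log2 fold change of 1.38 (SE 0.79) was not significant (edgeR adjusted p = 0.318). Gstm2, from 107981702 to 107986453 (minus strand), had 255, 154 and 246 CPM in KO against 205, 34.1 and 156 CPM in WT (log2 fold change 0.73, SE 0.57, edgeR adjusted p = 0.467). Gstm4, from 108040408 to 108044894 (minus strand), had 94.7, 66.6 and 100.1 CPM in KO against 75.6, 47.1 and 192 CPM in WT (log2 fold change -0.27, SE 0.48, edgeR adjusted p = 0.765).

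The 4 mu members shared a low value in WT library 2. That library was the lowest of the 6 for each of them, and in 26.4% of all tested genes. The mean of WT libraries 1 and 3 was 10.9-fold above WT library 2 for Gstm3, 5.29-fold for Gstm2, 2.88-fold for Gstm1 and 2.84-fold for Gstm4. Of the other mu genes, Gstm5 was lower in that library by much less, with 7.85 CPM against 9.58 and 11.7 CPM in WT libraries 1 and 3, while Gstm6 (116 against 114 and 148 CPM) and Gstm7 (84.6 against 66.0 and 66.0 CPM) were not lowest there. Gsta2 was also lowest there, as its values above show, and Gsta1 had 3.89 CPM there against 19.9 and 35.4 CPM in WT libraries 1 and 3. Without WT library 2 the log2 fold change was 0.86 for Gstm3, 0.27 for Gstm2, -0.39 for Gstm1 and -0.62 for Gstm4, and none passed (edgeR adjusted p of 0.187 to 0.547).

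WT library 2 also stood apart outside the family. The summed level of 15 genes known to be male-biased in mouse liver was 32745 CPM there, against 8779.5 and 17873 CPM in WT libraries 1 and 3, and 2907 to 4671 CPM in KO. Mup20 and Serpina1e supplied most of it there, at 15807 and 8980 CPM. The summed level of 8 macrophage markers was lowest there, at 871 CPM against 1733 and 1099 CPM in WT libraries 1 and 3, and ran from 1806 to 2297.5 CPM in KO. Cd5l was its largest part, at 353 CPM there against 780 and 511 CPM in WT libraries 1 and 3. Among the WT libraries, Clec4f and Vsig4 were lowest in library 3 (161 and 47.7 CPM) and not in library 2 (196 and 65.2 CPM). The other markers of the list were lowest in library 2. The part of these differences in the mu values was not tested.

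**Figure D2:**
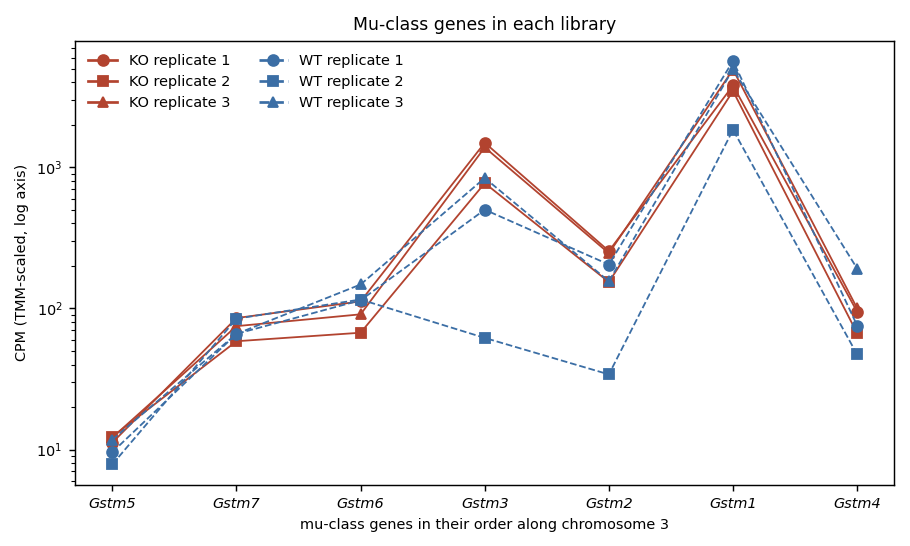
Level in CPM (log axis) of the 7 mu-class genes in their order along the chromosome, 1 line per library, with KO solid and WT dashed. WT library 2 drops away from the other libraries at Gstm3 and Gstm2, at 61.8 and 34.1 CPM, and lies with them at Gstm7 and Gstm6.

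The ratio of Gstm3 counts to Gstm1 counts was 0.393, 0.223 and 0.281 in KO libraries 1 to 3, against 0.0882, 0.0335 and 0.169 in WT libraries 1 to 3. Every KO ratio was above every WT ratio, a mean log2 difference of 1.87. Of the 50-base windows of Gstm3 transcripts 28.8% occur in another gene's transcripts, mostly the gene model Gm8834, against 18.9% of Gstm1, 5.65% of Gstm2 and none of Gstm4. With the 7 mu genes counted as 1, the log2 fold change was 0.18 (edgeR adjusted p = 0.816).

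In the pi class, Gstp1 was lower in KO. This gene, male-biased in mouse liver and known for a product that inhibits the stress kinase JNK, lies on chromosome 19 from 4035407 to 4037985 (minus strand). It had 550.3, 386 and 445 CPM in KO libraries 1 to 3, against 751, 1526.5 and 1525.8 CPM in WT libraries 1 to 3. All KO libraries were below all WT libraries, and WT library 1 lay nearest to KO. Gstp1 fell 2.75-fold (log2 fold change -1.46, SE 0.30; edgeR adjusted p = 0.0346). Any KO library or WT library 3 left out ended this call (adjusted p of up to 0.149), as did scaling by total counts alone (adjusted p = 0.0523).

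Its neighbour Gstp2 shares 33.7% of the 50-base windows of Gstp1. Of the windows of Gstp2 itself, 54.3% occur in another gene's transcripts and 49.1% in those of Gstp1, so its reads can come in part from Gstp1. Gstp2 had 6.85, 3.86 and 4.65 CPM in KO against 7.95, 12.6 and 40.3 CPM in WT. Every KO library lay below every WT library, which held in 16.6% of all genes. The log2 fold change of Gstp2, -1.99 (SE 0.60), did not pass (edgeR adjusted p = 0.0940). With the counts of both summed, the log2 fold change was -1.47 (edgeR adjusted p = 0.0346). All genes tested had 3.58% called lower, 3.36% called higher and a median log2 fold change of 0.00. Beside Gstp1, the 15 male-biased genes had 14 called lower and none called higher, with a median log2 fold change of -4.15. Among them Ugt2b1, a glucuronosyltransferase, fell 5.85-fold and Cyp4a12b, an omega-hydroxylase, 18.2-fold. In WT their summed level was lowest in library 1, as was Gstp1. It differed between WT libraries 2 and 3 (32745 and 17873 CPM), where Gstp1 was level (1526.5 and 1525.8 CPM). Mup20 was the largest part of the sum in each WT library. C9 and Susd4 were lowest in WT library 3 (522 and 15.4 CPM), and the other genes of the list in WT library 1. The part of these male-biased genes in the Gstp1 difference was not tested.

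In the theta class, Gstt1 was lower in KO. This gene, whose product is known for acting on small halogenated molecules such as dichloromethane, lies on chromosome 10 from 75783813 to 75798584 (minus strand). It had 141, 129.6 and 170.1 CPM in KO libraries 1 to 3, against 267, 253 and 231 CPM in WT libraries 1 to 3. The groups lay apart and each was tight. Gstt1 fell 1.70-fold (log2 fold change -0.77, SE 0.15; edgeR adjusted p = 0.0267), and none of its 50-base windows occurs in another gene's transcripts. Leaving out KO library 1, KO library 2, WT library 1 or WT library 3 raised its adjusted p past 0.05, to 0.127 at most.

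Gstt2, from 75831114 to 75837424 on the same chromosome (minus strand), had 35.6, 69.3 and 67.4 CPM in KO libraries 1 to 3, against 36.9, 46.1 and 35.3 CPM in WT libraries 1 to 3. KO libraries 2 and 3 were above all WT libraries and KO library 1 was level with them. The log2 fold change of 0.54 (SE 0.26) did not pass with all libraries (edgeR adjusted p = 0.235) and passed without KO library 1 (log2 0.80, adjusted p = 0.0467). The ratio of Gstt2 counts to Gstt1 counts was 0.253, 0.534 and 0.396 in KO, against 0.138, 0.182 and 0.153 in WT. No KO ratio of this pair, chosen after its values had been seen, overlapped the WT ratios, a mean log2 difference of 1.27. Gstt3, a neighbour of Gstt1, was at 39.7 ± 13.6 CPM in KO and 61.8 ± 24.0 CPM in WT (SD, n = 3 each, edgeR adjusted p = 0.281).

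**Figure D3:**
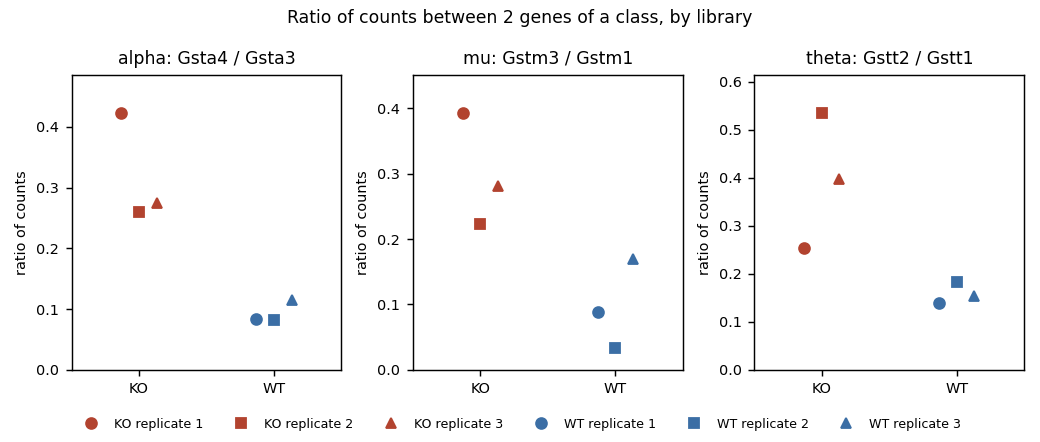
Ratio of counts between a pair of genes of the alpha, mu and theta classes in each library, not corrected for gene length, with KO on the left and WT on the right. Every KO ratio lies above every WT ratio in each panel, with KO values of 0.223 to 0.534 and WT values of 0.0335 to 0.182 over the 3 pairs. The pairs were chosen after their values had been seen, with the gene of the higher log2 fold change over the other. Their separation is therefore not independent evidence.

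Summed over the 10 genes, the level was 7021, 5620.1 and 8132 CPM in KO libraries 1 to 3, against 9025, 4885 and 8936 CPM in WT libraries 1 to 3, and the totals of the genotypes overlapped. The mu class held 80.4%, 79.4% and 81.9% of it in KO, against 71.6%, 40.7% and 68.8% in WT. The pi class held 7.84%, 6.87% and 5.47% in KO, against 8.32%, 31.2% and 17.1% in WT, and the alpha class 9.22%, 10.2% and 9.68% in KO, against 16.7%, 21.9% and 11.1% in WT. The mu share was higher and the alpha and pi shares lower in every KO library than in any WT library. The theta class held between 2.51% and 3.54% in KO and between 2.98% and 6.13% in WT, with overlap. As summed levels, alpha, pi and theta were lower in every KO library than in any WT library, the theta class at 204 ± 30.9 CPM in KO against 289.9 ± 20.9 CPM in WT (SD, n = 3 each). These sums were mostly Gsta3, Gstp1 alone and mostly Gstt1 (means of 147 CPM in KO and 250 CPM in WT). The other alpha and theta members, Gsta2, Gsta4 and Gstt2, had positive log2 fold changes that did not pass. The mu sums overlapped, at 5591 ± 1099.8 CPM in KO against 4866 ± 2497 CPM in WT, and their log2 ratio of 0.20 turned to -0.17 without WT library 2. These sums were not tested.

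**Figure D4:**
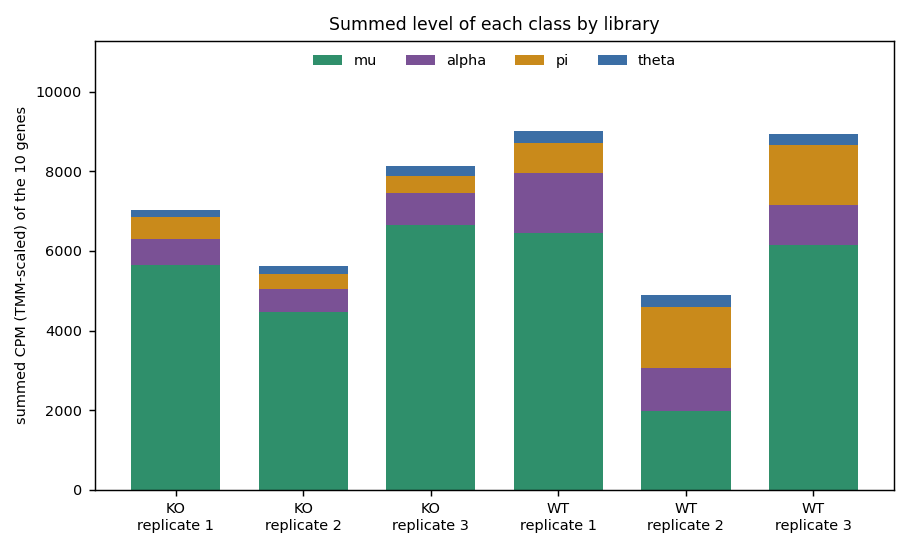
CPM summed over the members of each class in each library, stacked, with KO libraries on the left. The mu class fills most of every bar except that of WT library 2, where it holds 40.7%, and the pi and alpha parts are smaller in the KO bars.

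Per length of annotated exon, as CPM divided by exon length in kilobases (RPKM), Gstm1 was the most abundant in both genotypes, at 2762 ± 519.5 RPKM in KO and 2826 ± 1384 RPKM in WT (SD, n = 3 each). In KO it was followed by Gstm3 at 928 ± 296.5 RPKM and Gstp1 at 297.5 ± 53.7 RPKM. In WT the order of these was the reverse, with Gstp1 at 819 ± 289 RPKM and Gstm3 at 357 ± 298 RPKM, and their WT ranges overlapped. In KO the next genes, Gstm2, Gsta4, Gsta3 and Gstt1, each overlapped its neighbour in the order, down to Gstt1 at 96.1 ± 13.7 RPKM. In WT the next were Gsta3 at 239 ± 59.0 RPKM and Gstt1 at 164 ± 12.2 RPKM, which did not overlap, and then Gstm2, Gsta4, Gstm4 and Gsta2 between 78.3 and 47.9 RPKM, each overlapping the next. Gstt2 was lowest in both, at 13.8 ± 4.56 RPKM in KO and 9.49 ± 1.40 RPKM in WT. The annotated exons of Gsta3 and Gstt2 span 4344 and 4156 bases, against 1177 to 1707 for the other 8, so their RPKM would be higher over a shorter transcript.

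The other soluble GSTs held 11 genes in the table and 9 with enough counts. Of these 1 was called higher, Hpgds, and none lower, against 3.36% and 3.58% of all genes. Hpgds, the prostaglandin D synthase of blood cells and a sigma-class GST, was at 4.28 ± 1.08 CPM in KO against 1.17 ± 0.241 CPM in WT (SD, n = 3 each; 3.63-fold higher, edgeR adjusted p = 0.0192), and did not pass without KO library 2, KO library 3 or WT library 3 (adjusted p of up to 0.0936). Beside it, 2 of 8 macrophage markers, Clec4f and Vsig4, were called higher and none lower, against 3.36% of all genes called higher. Both lost their call without KO library 1, 2 or 3 or WT library 3, and Vsig4 also without WT library 2. Of the 8 log2 fold changes 6 were positive and 2 negative, Marco at -0.07 and Timd4 at -0.52. The summed levels of the 8 were 1806 to 2297.5 CPM in KO and 871 to 1733 CPM in WT. Cd5l was the largest part, at a mean of 1107 CPM in KO and 548 CPM in WT. The part of these 8 markers in the Hpgds difference was not tested. Gstz1, an enzyme of tyrosine breakdown, was at 474 ± 85.6 CPM in KO and 724 ± 107 CPM in WT and did not pass (log2 fold change -0.61, edgeR adjusted p = 0.1045). Gstt4 and Gsto2 had too few counts to be tested.

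Of the list of membrane and kappa GSTs 6 genes were tested, 1 was called lower and none higher, against 3.58% and 3.36% of all genes. The 6 tested were Gstk1, Mgst1, Mgst3, Ptges, Ltc4s and Alox5ap, of which Ptges, Ltc4s and Alox5ap are not named as GSTs. Mgst1, the microsomal GST of the endoplasmic reticulum and outer mitochondrial membrane, had 913, 983 and 1155 CPM in KO libraries 1 to 3, against 2688, 2620 and 2815 CPM in WT libraries 1 to 3. The groups lay far apart and each was tight. Mgst1 fell 2.66-fold (log2 fold change -1.41, SE 0.18; edgeR adjusted p = 0.00887) and lost its call only without KO library 2 (adjusted p = 0.0676). Mgst3 was at 24.7 ± 3.21 CPM in KO and 17.6 ± 4.74 CPM in WT (SD, n = 3 each, edgeR adjusted p = 0.185).

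**Figure D5:**
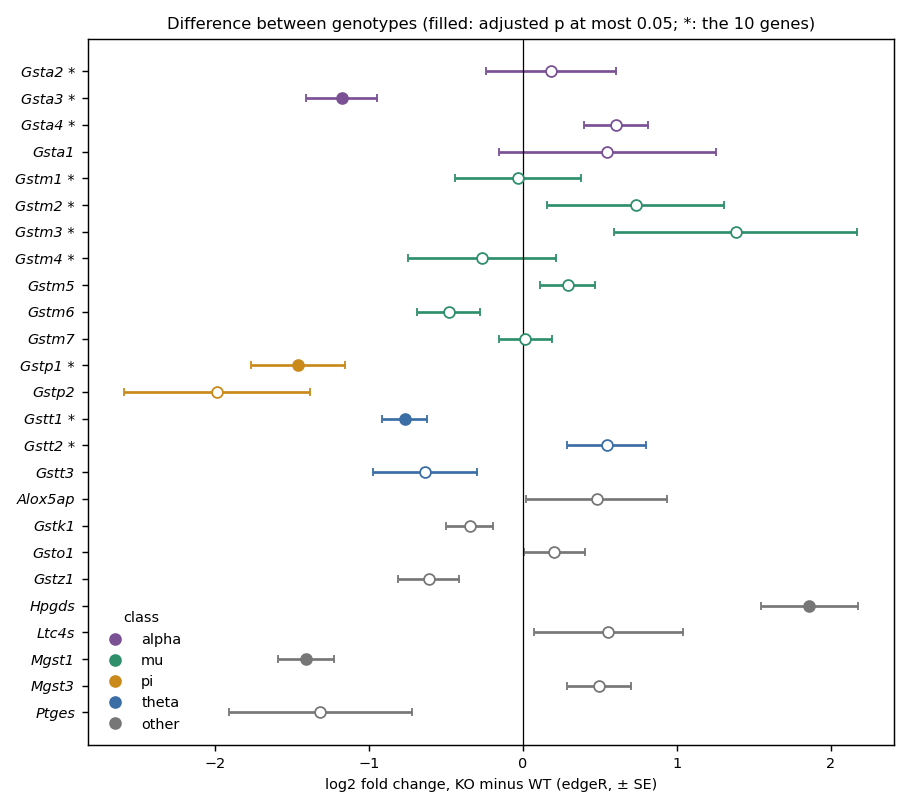
Log2 fold change of KO minus WT with its SE (edgeR, 3 libraries against 3) for the tested genes of the GST lists by class, Ptges, Ltc4s and Alox5ap included. The 10 genes are starred, and filled points mark an adjusted p of at most 0.05. The filled points are Gsta3, Gstp1, Gstt1 and Mgst1 on the lower side and Hpgds on the higher side.

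Of 15 tested genes of glutathione synthesis and turnover (median log2 fold change 0.00), 1 fell and none rose, against 3.58% and 3.36% of all genes. The faller was Chac1, which encodes an enzyme that breaks glutathione down, at 7.61 ± 1.04 CPM in KO against 15.3 ± 2.93 CPM in WT (SD, n = 3 each, edgeR adjusted p = 0.0282), and it passed only in the fits without WT library 1 or 2, of the 6 that left a library out. Of 14 other enzymes that use glutathione, Gpx3, a secreted peroxidase, rose 2.83-fold (edgeR adjusted p = 0.0118), and both glyoxalases fell, Glo1 2.34-fold and Hagh 1.81-fold (edgeR adjusted p = 0.0473 and 0.0437). Gpx3 did not pass without KO library 2 or WT library 3, Glo1 without KO library 1, 2 or 3 or WT library 3, and Hagh in none of the 6 fits that left a library out.

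Of 10 genes that make or control NRF2, 1 rose and none fell, against 3.36% and 3.58% of all genes. Sqstm1, the autophagy adaptor that binds Keap1, had 2266, 1321 and 1144 CPM in KO libraries 1 to 3, against 574, 459 and 726 CPM in WT libraries 1 to 3, without overlap (2.69-fold higher, edgeR adjusted p = 0.0390). Leaving out any 1 library ended this call (adjusted p of up to 0.106). Nfe2l2, which encodes NRF2, was at 95.2 ± 9.68 CPM in KO and 58.1 ± 16.1 CPM in WT (SD, n = 3 each; log2 fold change 0.71, edgeR adjusted p = 0.0761), and it passed without WT library 1 (adjusted p = 0.0215) and with DESeq2 on all 6 libraries (adjusted p = 0.0231). Keap1 was at 64.4 ± 2.62 CPM in KO and 73.1 ± 5.14 CPM in WT (log2 fold change -0.18, edgeR adjusted p = 0.322), with the sign turned when libraries were scaled by total counts alone. Of 19 known NRF2 target genes outside the GSTs, 1 rose (Abcc4) and 1 fell (the carboxylesterase Ces2g, 1.47-fold), with a median log2 fold change of 0.20. Ces2g lost its call without KO library 1, 2 or 3 or WT library 3.

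Of 11 tested genes that export or process glutathione conjugates (median log2 fold change 0.08), 3 fell and 1 rose, against 3.58% and 3.36% of all genes. Abcc4, a basolateral exporter, was at 32.1 ± 4.34 CPM in KO against 7.25 ± 2.497 CPM in WT (SD, n = 3 each; 4.41-fold higher, edgeR adjusted p = 0.00733). Nat8, which acetylates cysteine conjugates in the last step of mercapturate formation, was at 3.85 ± 0.537 CPM in KO against 15.0 ± 1.64 CPM in WT (3.88-fold lower, edgeR adjusted p = 0.00421). Acy3, an aminoacylase that removes that acetyl group, fell 1.90-fold (edgeR adjusted p = 0.0162), and the exporter gene Abcg2 1.51-fold (edgeR adjusted p = 0.0431). Abcc4 and Nat8 passed whichever library was left out, Acy3 did not pass without KO library 2 or WT library 3, and Abcg2 passed only without WT library 1. None of 13 receptors and liver factors, such as the drug sensors Nr1i2 and Nr1i3, passed, with a median log2 fold change of -0.29. In 4 of the 13 every KO library lay below every WT library, which held in 16.6% of all genes.

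Markers of other cell types and of liver zones were read beside the GSTs. All genes tested had 3.58% called lower, 3.36% called higher and a median log2 fold change of 0.00. Of 12 tested genes of pericentral hepatocytes, the zone around the central vein where many detoxifying enzymes are made, 7 fell and none rose (median log2 fold change -1.24), with summed levels of 2425 to 5245 CPM in KO and 11094 to 15441 CPM in WT. Among them Rgn fell 4.92-fold, Slc1a2, a glutamate transporter, 5.99-fold, the glutamine synthetase Glul 3.61-fold and Cyp1a2 2.90-fold. Of 10 periportal genes 2 rose, Cdh1 and Hsd17b13, and Cyp2f2 fell 3.42-fold. Cyp1a2 and Cyp2f2 lost their call without KO library 2, Cdh1 without KO library 1, 2 or 3 or WT library 3, and Hsd17b13 in every fit that left a library out except that without KO library 1. Of 8 stellate cell markers 3 rose, Col1a1, Col3a1 and Dcn, each of which lost its call without KO library 1, 2 or 3 or WT library 3 (Dcn also without WT library 2), with summed levels of 827 to 1065 CPM in KO and 297 to 466 CPM in WT. None of 5 tested cholangiocyte markers passed, with summed levels of 97.6 to 113.6 CPM in KO and 53.8 to 98.3 CPM in WT. None of 7 endothelial markers (173 to 365 CPM in KO, 318 to 405 CPM in WT) and none of 7 other leukocyte markers (34.8 to 56.5 CPM in KO, 20.8 to 70.4 CPM in WT) passed. The part of these in the GST differences was not tested.

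For each of the 3 called genes, the 3 genes outside the family with the most similar profile over the 6 libraries were found among 7988 candidates, as the smallest root mean square difference of log2 CPM after centring each gene. For Gsta3 they were Adh4 (difference 0.121 log2 units), Adh1 (0.149), both alcohol dehydrogenases, and Paox (0.153), a polyamine oxidase. For Gstp1 they were Sdr9c7 (0.141), a dehydrogenase of the short-chain family, C8a (0.148), a complement component, and Cmah (0.197), which makes a sialic acid. For Gstt1 they included Ugt2b36 (0.0603), a glucuronosyltransferase, and Sc5d (0.0712), an enzyme of cholesterol synthesis. Sc5d, for example, was at 112 ± 15.3 CPM in KO against 198 ± 20.0 CPM in WT, and C8a at 399 ± 54.7 CPM in KO against 1053.5 ± 403.0 CPM in WT (SD, n = 3 each).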

How the data were processed

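Liver RNA of 3 KO and 3 WT samples was measured. The authors deposited raw read counts per gene symbol, 1 column per library, with no normalization. Tools in the submitters' processing notes are edgeR 3.20.8, STAR 2.5, Subread 1.5.3 and featureCounts, with build mm10. The strand setting is not given in the sources used here, nor are the annotation and the handling of reads matching more than 1 gene. Close copies and overlapping genes are uncertain for this reason. Libraries were grouped by the labelled genotype and numbered in accession order. The labels name no separate animals behind the samples, and p-values therefore reflect the spread of these samples alone, which may be technical. No 2 libraries were alike within counting noise.

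In R 4.3.3, edgeR 4.0.16 was run on the counts with the filterByExpr defaults (at least 10 counts, total of 15), TMM factors, glmQLFit with robust dispersion and a two-sided F-test of KO minus WT, adjusted by Benjamini-Hochberg over 12945 genes, threshold 0.05. Each SE is the size of the log2 fold change over the square root of its F value. Positions, exon lengths and 50-base windows come from GENCODE M21 (GRCm38), promoters from RefSeq, which held 8 of the 10 genes and none for Gsta4 and Gstt2. Promoter stretches were printed outside annotated exons, apart from the 27-base site of Gstp1. The fit was tested on simulated data.

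The 10 genes and all lists were chosen with earlier results of these data known. Genes named were the 10, Sesn3, Nfe2l2, Keap1, up to 4 called genes of each list by smallest p, and for each called member the 3 most similar genes with a mean of at least 10 CPM, of which 1 is not reported here. The other GST genes, Ptges, Ltc4s, Alox5ap, Nr1i2, Nr1i3 and the hepatocyte markers were named after values were seen. So were Marco, Timd4, Cd5l, Mup20, Serpina1e and C9. Under the symbols used, 6 of the listed genes had no row and were left out. Alternatives tried: scaling by total counts alone, by RLE or by upper-quartile factors, no filter, 1 CPM in 3 libraries, DESeq2 1.42.0, limma-voom (limma 3.58.1), no robust dispersion, copies summed, whole classes summed and each library left out. Figures were drawn with matplotlib 3.10.9.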

Additional observations from a re-analysis of the deposited data

How the results depend on the processing

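No paired analysis was possible because the labels carry no replicate numbers shared between the genotypes. Gsta3 and Gstt1 kept their call under every alternative that used all 6 libraries, and Gstp1 under all but library size only. Leaving out 1 library gave 0 to 3 GST members called lower and 0 to 1 called higher, and 48 to 504 genes called higher and 53 to 475 called lower in all. With library size only, 707 genes were higher and 258 lower (73.3% of calls higher, against 48.4% with TMM factors), the median of all genes moved to 0.21 (log2), and the log2 ratio of the theta sum was -0.30. DESeq2 called 921 higher and 1061 lower. The log2 difference of Gstm1, -0.03 with all libraries, was 0.011 under upper-quartile factors, 0.14 for library size only and 0.12 with limma-voom. The summed counts of the 7 mu genes gave 0.18, which is not a value of Gstm1 alone. Without 1 library the log2 difference of Gstm1 ran from -0.39 to 0.26, that of Gsta2 from -0.19 to 0.44 and that of Gstm4 from -0.62 to 0.51. Keap1 was at 0.026 with library size only, where Chac1, Ces2g, Abcg2, Sdr9c7 and Ugt2b36 lost their calls, and Col1a1, Col3a1 and Sdr9c7 lost theirs with no filter on low counts. The cause of these shifts was not tested. Each of the 10 genes had at least 393 counts in every library.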
